A study of Homo sapiens with 8 samples.

Results

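The genes examined here were 10 circadian clock genes, namely PER1, PER2, PER3, CRY1, CRY2, NR1D1, NR1D2, DBP, BMAL1 (also named ARNTL) and CLOCK, out of 19056 genes that the probes of the arrays could be matched to. They were chosen by name as the repressors, the nuclear receptors, the output factor and the activators of the clock, and all 10 had at least 1 probe. Expression was measured in A549 cells, an established line from a human lung carcinoma, with 8 Agilent human arrays of 1 colour, which made up 2 series. The EEDS series held a vehicle control and cells given 1.25, 5 or 20 μg/mL EEDS, the ethanol extract of D. sophia seeds. The helveticoside series held its own vehicle control and cells given 3.75, 15 or 60 nM helveticoside, a cardiac glycoside found in that extract. EEDS was dissolved in DMSO, the exposure was 48 h by the labels and 24 h by the study's methods, and each array held pooled RNA of 3 cultures of this 1 line, so each dose had 1 array and no replicate error. The agents shared no control and no array, so what an agent did and how its series was run cannot be told apart, and in pooled RNA fewer cells expressing a gene cannot be told apart from less of its RNA per cell.

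In the cell-autonomous clock, BMAL1 and CLOCK form a dimer that binds E-box sequences and drives the PER, CRY, NR1D and DBP genes. PER and CRY proteins accumulate, enter the nucleus and repress that dimer, while the nuclear receptors encoded by NR1D1 and NR1D2 (REV-ERB alpha and beta) repress BMAL1. PER1 and PER2 are also known as immediate responders to serum, cAMP and glucocorticoid in cultured cells. No sample series over the hours of a day was part of this experiment, so phase and rhythm were not measured.

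The promoters of the clock genes are the sequences through which this loop acts, and those that held an E-box or a D-box are shown together with that of DBP, the gene that stood lower at the top doses. They are RefSeq windows of GRCh38.p14 from 250 bases before to 50 bases after a transcription start, read 5′ to 3′ on the gene's strand, and all 10 genes had at least 1 window. Capitals mark the E-box CACGTG and the D-box, searched as TTATGTAA, TTATGCAA, TTACGTAA or TTACGCAA on both strands. The windows were PER1 at chr17:8152355-8152654 (minus strand), PER2 at chr2:238288561-238288860 (minus strand, a start inside the annotated span of the gene), the first of 2 windows of PER3 at chr1:7784041-7784340 (plus strand), the second of 2 windows of NR1D2 at chr3:23945871-23946170 (plus strand) and DBP at chr19:48637330-48637629 (minus strand).
PER1: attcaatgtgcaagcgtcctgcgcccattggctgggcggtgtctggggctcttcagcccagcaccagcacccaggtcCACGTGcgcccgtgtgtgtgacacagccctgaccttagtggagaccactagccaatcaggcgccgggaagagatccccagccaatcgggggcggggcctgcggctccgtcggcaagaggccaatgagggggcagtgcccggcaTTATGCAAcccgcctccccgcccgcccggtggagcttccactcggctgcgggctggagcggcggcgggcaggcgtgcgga
PER2: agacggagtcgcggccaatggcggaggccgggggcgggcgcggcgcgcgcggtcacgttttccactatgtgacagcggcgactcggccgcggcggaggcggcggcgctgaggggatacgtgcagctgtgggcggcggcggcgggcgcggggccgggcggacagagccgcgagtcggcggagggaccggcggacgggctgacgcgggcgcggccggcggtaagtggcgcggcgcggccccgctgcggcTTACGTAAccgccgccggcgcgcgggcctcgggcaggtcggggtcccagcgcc
PER3: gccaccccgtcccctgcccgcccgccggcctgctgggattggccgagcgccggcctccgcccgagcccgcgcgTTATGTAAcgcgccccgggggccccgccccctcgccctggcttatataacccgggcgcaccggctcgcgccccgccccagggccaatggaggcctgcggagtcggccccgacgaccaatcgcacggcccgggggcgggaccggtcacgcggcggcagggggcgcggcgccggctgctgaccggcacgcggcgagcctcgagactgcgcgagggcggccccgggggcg
NR1D2: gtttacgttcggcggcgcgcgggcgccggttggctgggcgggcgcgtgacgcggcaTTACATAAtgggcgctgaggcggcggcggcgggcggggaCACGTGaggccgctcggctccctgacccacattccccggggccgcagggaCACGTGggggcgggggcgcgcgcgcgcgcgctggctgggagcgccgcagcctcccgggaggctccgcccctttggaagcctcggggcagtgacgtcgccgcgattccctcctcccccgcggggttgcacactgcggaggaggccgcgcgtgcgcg
DBP: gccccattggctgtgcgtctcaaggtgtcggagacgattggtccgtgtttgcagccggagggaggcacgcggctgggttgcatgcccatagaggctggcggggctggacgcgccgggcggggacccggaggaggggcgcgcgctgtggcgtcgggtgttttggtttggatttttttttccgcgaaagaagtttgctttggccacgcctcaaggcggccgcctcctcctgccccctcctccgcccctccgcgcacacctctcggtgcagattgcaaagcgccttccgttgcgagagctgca
PER1 held an E-box that began at base -173 from the start and a D-box at -30. PER2 held a D-box at -3, PER3 held one at -177, and NR1D2 held a D-box on the minus strand at -194 and an E-box at each of -155 and -105. Among all 35116 promoter windows of the table, 7.26% held the E-box letters and 1.99% held D-box letters. Neither motif, nor the full cAMP response element TGACGTCA (held by 1.85% of all windows), was found in the windows of CRY1, CRY2, NR1D1, DBP, BMAL1 and CLOCK. The letters AGGTCA, which NR1D and ROR receptors recognise and 13.8% of all windows held, was found on either strand in the PER1 window, in both windows of CRY2 and in the second of 2 windows of BMAL1. A match is a description of the letters and not a bound site, and a window without a match says nothing about the factor, since clock elements can lie in introns or farther upstream. The data hold no measure of binding at these windows.

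Values are the scanner software's processed signals after quantile normalization over the 8 arrays, and a ratio is the log2 of the signal at a dose over that of the vehicle control of its own series. A signal is compared only between arrays for the same probe, and never between genes. All members except PER3 were well above background on all 8 arrays by the scanner software's call. As a gauge of how far 2 untreated arrays lie apart, the vehicle controls differed with an SD of 0.48 (log2) over 11498 genes well above background on all arrays, and 4.73% of those genes differed over 2-fold. Among the members that difference, helveticoside control minus EEDS control, ran from -0.85 for PER1 to 0.86 for PER3.

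The top dose of each agent lay above the concentration at which the paper placed the midpoint of growth inhibition. The part of growth inhibition in the values was not tested. At the top dose the clock genes stood mostly above their controls. With 20 μg/mL EEDS, 7 of the 10 were over 2-fold higher (PER1, PER2, PER3, CRY1, CRY2, NR1D1 and NR1D2), against 13.3% of all genes, and with 60 nM helveticoside 6 were (the same genes without PER2), against 10.8%. DBP alone was over 2-fold lower with either agent, against 14.5% of all genes with EEDS and 12.8% with helveticoside. The members' median ratio was 2.24 with EEDS and 1.23 with helveticoside, whereas the median of all genes was 0.021 and -0.0039. Counting only members well above background on both arrays of a pair, which leaves PER3 out, 6 and 5 of 9 were over 2-fold higher. The share of all genes under this filter was not counted, so it is not set against the shares above.

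**Figure D1:**
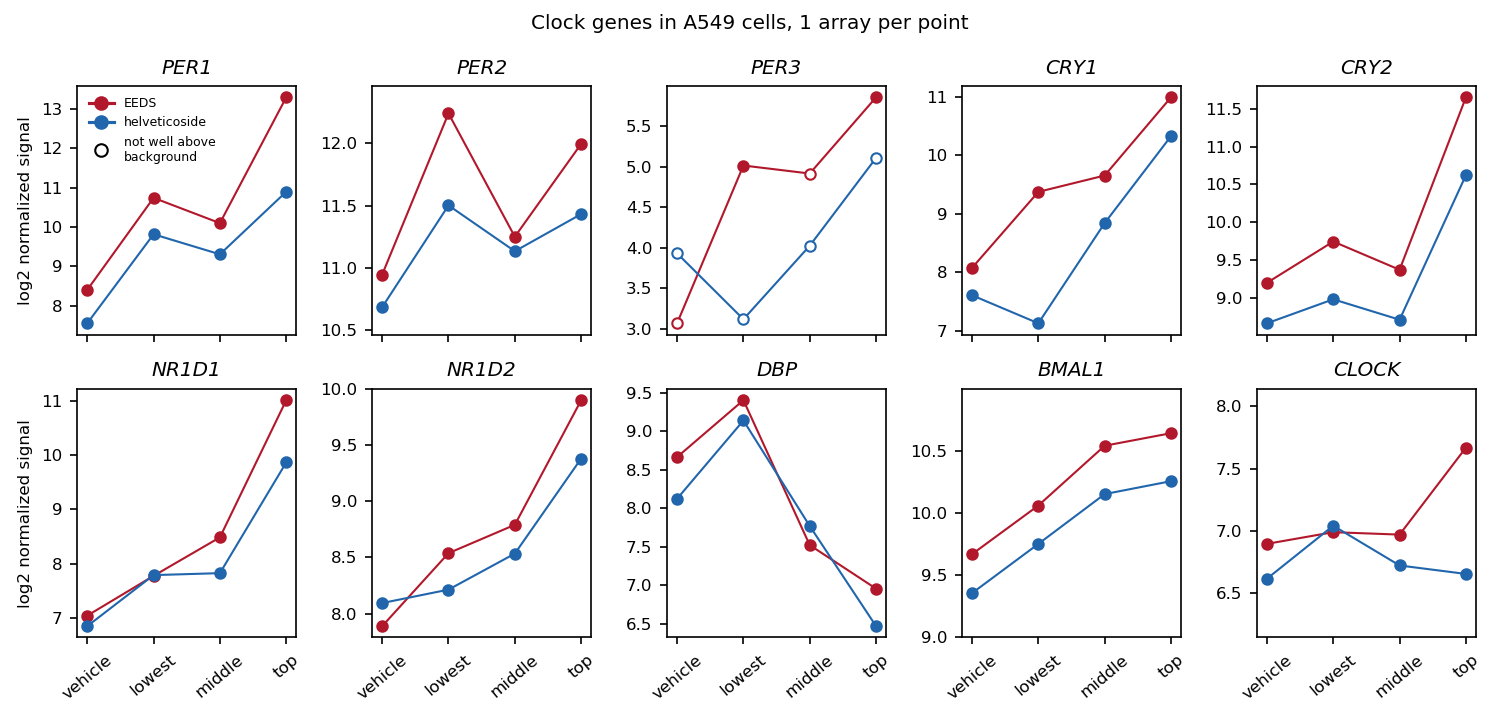
Log2 normalized signal of each of the 10 clock genes (y axis, scaled per gene) at the vehicle control and the lowest, middle and top dose (x axis) of EEDS (red) and helveticoside (blue). Each point is 1 array and open points were not well above background. The repressor genes PER1, CRY1, CRY2, NR1D1 and NR1D2 ended highest at the top dose with either agent, and DBP ended lowest.

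PER1, which encodes a repressor of the loop and responds quickly to extracellular signals, had the largest ratio at every dose of both agents among the 9 members well above background on all arrays. Its signal was 338 on the EEDS control and 1713, 1096 and 10091 at 1.25, 5 and 20 μg/mL. On the helveticoside control it was 187, followed by 901, 632 and 1909 at 3.75, 15 and 60 nM. All 6 treated arrays thus lay above both controls. The ratios were 2.34, 1.70 and 4.90 with EEDS and 2.27, 1.76 and 3.35 with helveticoside, which is 29.9-fold and 10.2-fold at the top doses. The size depended on the control and the normalization: against the control of the other series the top-dose ratios were 5.75 and 2.50, and in the authors' deposited values that of helveticoside was 2.68.

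PER2, a partner repressor, was measured by the more intense of its 2 probes. Its signal was 1970 on the EEDS control and 4841, 2434 and 4086 at the rising doses, and 1643, 2898, 2245 and 2762 on the helveticoside arrays. The highest of the 4 arrays was the lowest dose in both series. Its ratios were 1.30, 0.31 and 1.05 with EEDS and 0.82, 0.45 and 0.75 with helveticoside. The second probe of PER2, also well above background throughout, gave 1.32, 0.68 and 2.13 and then 1.43, 0.78 and 1.28, so that by this probe PER2 was over 2-fold higher at the top dose of either agent.

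PER3, the least essential of the period repressors, was near the detection limit. Its signal was 8.4, 32.4, 30.2 and 58.0 over the EEDS arrays and 15.3, 8.7, 16.3 and 34.5 over the helveticoside arrays, and only the arrays at 1.25 and 20 μg/mL EEDS were well above background. There PER3 was 1.38-fold and 2.47-fold higher, with the control set at the dimmest probe signal that passed the background call on its array. These values hold for the main normalization only. With normexp background correction the ratio at 20 μg/mL was 0.74. The second PER3 probe was well above background on no array and had a ratio of 0.09 at 20 μg/mL EEDS.

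CRY1, a strong repressor of the BMAL1 and CLOCK dimer, had a signal of 270.1 on the EEDS control and 665, 807 and 2036 at the rising doses. With helveticoside it went from 195 to 140.2, 459 and 1285. Every dose above the lowest lay over both controls, and at 3.75 nM CRY1 was below its own control. The ratios were 1.30, 1.58 and 2.91 with EEDS and -0.48, 1.23 and 2.72 with helveticoside, or 7.54-fold and 6.58-fold at the top.

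CRY2, the other cryptochrome repressor, had signals of 586, 856, 661 and 3223 over the EEDS arrays and 404, 504, 418 and 1576 over the helveticoside arrays. The top dose stood apart in both series, and the lower doses lay within 0.55 (log2) of their own control. The ratios were 0.55, 0.17 and 2.46 with EEDS and 0.32, 0.05 and 1.96 with helveticoside.

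NR1D1, which represses BMAL1 transcription and binds heme, had signals of 132, 219, 359 and 2066 over the EEDS arrays and 115, 222, 227 and 934 over the helveticoside arrays. The signal was higher at each higher dose in both series. The ratios were 0.73, 1.44 and 3.97 with EEDS and 0.94, 0.98 and 3.02 with helveticoside, so that the top-dose signal was 15.7 and 8.09 times its control.

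NR1D2, its partly redundant paralog, had signals of 237, 372, 443 and 957 with EEDS and 273, 297, 371 and 667 with helveticoside. These too were in the order of the doses in both series. The ratios were 0.65, 0.90 and 2.01 with EEDS and 0.12, 0.44 and 1.29 with helveticoside, and the second probe of the gene gave 0.56, 1.25 and 2.37 and then 0.54, 0.89 and 2.04.

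DBP, a PAR bZIP activator that binds D-boxes and is a direct output of the clock, ran against the repressors at the higher doses. Its signal was 405 on the EEDS control and 676, 184 and 124 at the rising doses. Over the helveticoside arrays it was 279, 563, 218 and 88.7. In both series the lowest dose was the highest array and the top dose the lowest. The ratios were 0.74, -1.14 and -1.71 with EEDS and 1.01, -0.35 and -1.65 with helveticoside, a signal 3.26-fold and 3.14-fold lower than the control at the top.

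BMAL1 and CLOCK, the activators, differed less from their controls. BMAL1 had signals of 813, 1066, 1488 and 1596 with EEDS and 654, 861, 1136 and 1221 with helveticoside, in the order of the doses and with ratios of 0.39, 0.87 and 0.97 and of 0.40, 0.80 and 0.90. BMAL1 did not reach 2-fold at any dose. CLOCK had signals of 119, 127, 125 and 203 with EEDS and of 97.9, 132, 106 and 101 with helveticoside. Its ratios were 0.09, 0.07 and 0.77 with EEDS and 0.43, 0.11 and 0.04 with helveticoside, and its second probe gave 0.49, 0.41 and 0.43 and then -0.13, -0.09 and -0.02. The CLOCK probes thus disagreed on which EEDS array was highest and on the side of the control with helveticoside.

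At the lower doses fewer members passed 2-fold. With 1.25 μg/mL EEDS none was over 2-fold lower (3.66% of all genes), and all 10 lay above the control. PER1, PER2, PER3 and CRY1 passed 2-fold there (4 of 10, against 4.21% of all genes higher), although PER3 by its bound was only 1.38-fold higher. With 5 μg/mL, PER1, PER3, CRY1 and NR1D1 did (4 of 10, against 7.33%, with PER3 not well above background on either array compared) and DBP was over 2-fold lower (8.46%). With 3.75 nM helveticoside, PER1 and DBP were over 2-fold higher (2 of 10, against 3.38%) and none was over 2-fold lower (4.3%). With 15 nM, PER1 and CRY1 were higher (2 of 10, against 7.08%) and none was over 2-fold lower (8.06%). PER1 was the member over 2-fold higher at all 6 doses. The members just short of the 2-fold line at a top dose were BMAL1 with either agent, CLOCK with EEDS and PER2 with helveticoside, and those just past it, among members above background, were PER2 with EEDS and NR1D2 with helveticoside.

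Some members did not follow the order of the doses. Of the 9 members well above background on all arrays, 5 (PER1, PER2, CRY2, DBP and CLOCK) were above the control at the lowest dose and lower at the middle dose than at the lowest in both series, against 9.52% of the 11498 genes measured that well. The repeat of this order in the second series is a count, chosen after the values were seen, and each step rests on 1 array. CRY1, NR1D1, NR1D2 and BMAL1 did not have it in either series. CLOCK enters the count on EEDS ratios of 0.09 and 0.07 at the lowest and middle dose. Its second probe lacked the order with helveticoside, at -0.13 and then -0.09. With dose step as a factor shared by both agents, limma's difference of the middle from the lowest dose was -1.62 ± 0.22 (SE, adjusted p = 0.0640) for DBP and -0.68 ± 0.17 (adjusted p = 0.113) for PER2, and limma called no gene of all 19056 for this difference. At an unadjusted p under 0.05 there were 4429 genes, among them 3 members (PER2, DBP and BMAL1), of which BMAL1 was higher at the middle dose.

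**Figure D2:**
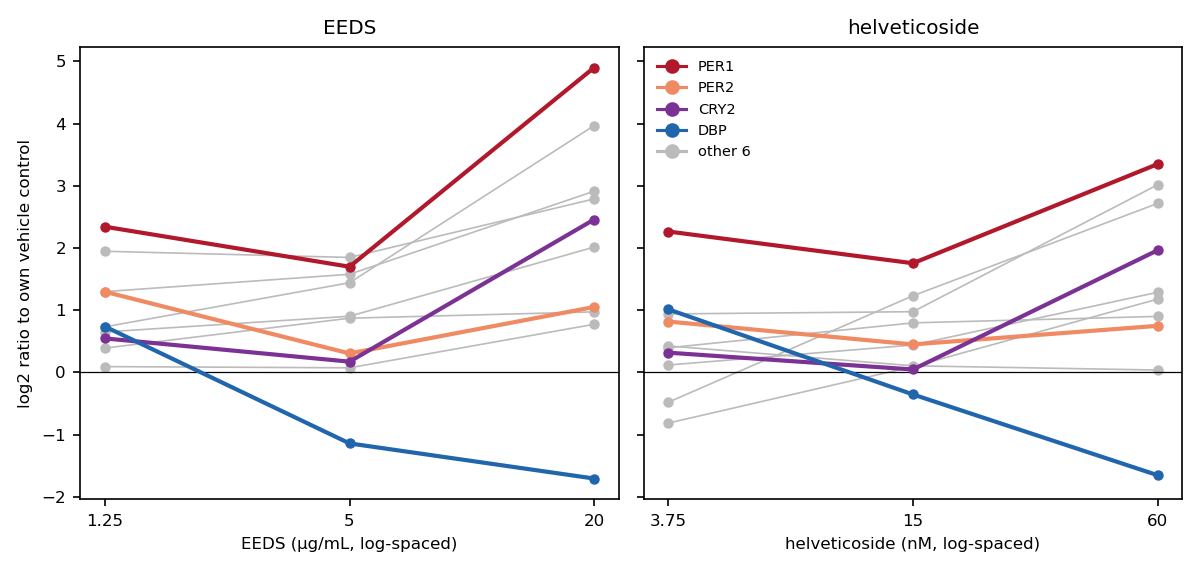
Log2 ratio to the own vehicle control (y axis) at the 3 doses (x axis, log-spaced, 4-fold apart) of EEDS in μg/mL and of helveticoside in nM, with 1 array per point. PER1, PER2, CRY2 and DBP are coloured and each was lower at the middle than at the lowest dose in both series, and at the top dose DBP lay below 0 and the other 3 above it.

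Whether the members changed steadily with dose was asked with a straight line per agent over the 4 dose steps, fitted with limma to all 19056 genes on the 8 arrays with Benjamini-Hochberg adjustment. The p-values measure the spread of the arrays about these lines and not between replicates. With EEDS, NR1D1, NR1D2 and BMAL1 rose, 3 of 10 members against 7.26% of all genes, and no member fell, against 7.85%. The slope per dose step was 1.26 (95% interval 0.63 to 1.89, adjusted p = 0.0322) for NR1D1, 0.63 (0.36 to 0.90, adjusted p = 0.0239) for NR1D2 and 0.34 (0.19 to 0.49, adjusted p = 0.0264) for BMAL1. With helveticoside, BMAL1 rose, with a slope of 0.31 (0.16 to 0.46, adjusted p = 0.0371), which was 1 of 10 against 5.46% of all genes, and no member fell, against 5.79%.

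CRY1 and PER1 did not pass this test. With EEDS the slope of CRY1 was 0.90 (limma adjusted p = 0.0580) and that of PER1 was 1.41 (adjusted p = 0.0607). With helveticoside CRY1 had a slope of 0.99 (adjusted p = 0.0550), NR1D2 one of 0.42 (adjusted p = 0.0671) and NR1D1 one of 0.91 (adjusted p = 0.0777). At an unadjusted p under 0.05 there were 6 members with EEDS and 5 with helveticoside. The matching number of all genes was not counted, so these counts are not read as a result about the members. It was at least the 2879 genes with EEDS and 2145 with helveticoside called at the adjusted threshold. The calls turned on single arrays: without the EEDS control, the 1.25 or 20 μg/mL array or the 15 nM helveticoside array no member was called for EEDS, NR1D1 was also lost without the helveticoside control or its 3.75 nM array, and the helveticoside call of BMAL1 was lost when any 1 of the 8 arrays was left out. For some arrays this held for all genes: without the EEDS control or the 20 μg/mL array limma called no gene for EEDS. Without the 1.25 μg/mL array it still called 1704 genes for EEDS, and without the 15 nM array 892, none of them a member. Without the 15 or 60 nM array it called none for helveticoside. Without any other single array it still called 466 to 1478 genes for helveticoside, BMAL1 not among them.

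**Figure D3:**
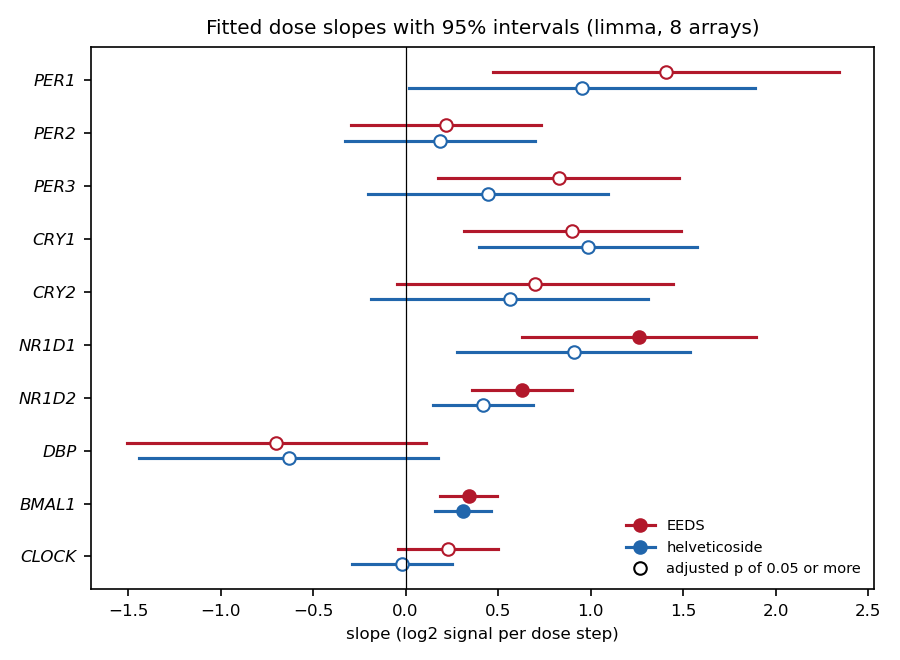
Slope of log2 signal per dose step (x axis) of each clock gene (y axis) with EEDS (red) and helveticoside (blue), from limma over 8 arrays, where bars are 95% intervals and filled points have an adjusted p under 0.05. The filled points are NR1D1, NR1D2 and BMAL1 with EEDS and BMAL1 with helveticoside, and the intervals of both agents overlap for every gene.

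The slopes of the agents were compared in the same fit, where doses of EEDS and of helveticoside match only as steps and not in amount. No member, and none of the 19056 genes (0.0%), had a difference at an adjusted p under 0.05, and at an unadjusted p under 0.05 there were 525 genes, none of them a member. The difference, EEDS minus helveticoside, was 0.45 (95% interval -0.87 to 1.77) for PER1, 0.35 (-0.54 to 1.24) for NR1D1, 0.25 (-0.13 to 0.63) for CLOCK, 0.03 (-0.19 to 0.25) for BMAL1 and -0.08 (-0.91 to 0.75) for CRY1. For PER1, NR1D1, CLOCK and CRY1 these intervals leave room for differences as large as the slope with at least 1 agent. That of BMAL1 was the narrowest of these and stopped short of its slopes of 0.34 with EEDS and 0.31 with helveticoside.

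A fit that took dose step as a factor common to both agents, added after the data were seen, described the top dose without a straight line and counted any difference between the agents as error. Its limma difference of the top dose from the control was called for 7 members that rose, against 18.4% of all genes, and for 1 that fell, against 19.8%. In order of size these were PER1 (4.13 ± 0.45 SE, adjusted p = 0.00381), NR1D1 (3.49 ± 0.31, adjusted p = 0.00257), CRY1 (2.82 ± 0.47, adjusted p = 0.0112), CRY2 (2.21 ± 0.14, adjusted p = 0.00183), NR1D2 (1.65 ± 0.19, adjusted p = 0.00450), BMAL1 (0.94 ± 0.08, adjusted p = 0.00213) and PER2 (0.90 ± 0.17, adjusted p = 0.0169). DBP fell by 1.68 ± 0.22 (adjusted p = 0.00619). PER3 was not called at 1.98 ± 0.67 (adjusted p = 0.0818), nor CLOCK at 0.41 ± 0.28 (adjusted p = 0.339). Leaving out each array in turn left 6 to 8 members called, against 21.5% to 36.3% of all genes. CRY1 and PER2 were lost without the EEDS control or the 60 nM array, PER2 was lost without the 20 μg/mL array, and without the helveticoside control PER2 was lost and PER3 was called. In this fit BMAL1 was also higher at the middle dose (0.83 ± 0.08, limma adjusted p = 0.0135). That was 1 of 10 members, where limma called 4217 of all 19056 genes in either direction. No member was called at the lowest dose, where limma called 2 of all genes. There 3645 genes with 6 members (PER1, PER2, CRY2, NR1D1, DBP and BMAL1) had an unadjusted p under 0.05.

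The genes around the core loop are given next, by lists of their roles. Among the enzymes that mark PER and CRY proteins for degradation or protect them, 11 of 12 genes were measured and 10 were well above background on the arrays compared. Their limma slopes rose for 3 with EEDS (CSNK1D, CSNK1E and CSNK1A1, against 7.26% of all genes) and for 3 with helveticoside (CSNK1D, CSNK1E and BTRC, against 5.46%), and fell for none. CSNK1D, a casein kinase that phosphorylates PER proteins, had signals of 2786, 3173, 4984 and 8323 with EEDS and 2049, 2139, 3939 and 6618 with helveticoside, in the order of the doses. Its top-dose ratios were 1.58 and 1.69, and its slopes were 0.54 (limma adjusted p = 0.0284) and 0.60 (adjusted p = 0.0283). CSNK1E, its close relative, had top-dose ratios of 1.21 and 0.76 and slopes of 0.41 (adjusted p = 0.0144) and 0.26 (adjusted p = 0.0352). The median top-dose ratio of the list was 0.63 with EEDS and 0.56 with helveticoside.

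The other repressors and the D-box factors were mixed. BHLHE40 (DEC1), which competes for E-boxes, had top-dose ratios of 1.45 and 1.60, and limma slopes of 0.44 with either agent (adjusted p = 0.115 and 0.130). TIMELESS, whose mammalian product acts mainly at replication forks, fell with both agents, with slopes of -0.29 (limma adjusted p = 0.0200) with EEDS and -0.22 (adjusted p = 0.0413) with helveticoside. CIPC, a repressor of the CLOCK protein, had top-dose ratios of -0.97 and -1.21. TEF, a D-box activator like DBP, differed from DBP in sign at the top, with signals of 37.4, 108, 72.1 and 216 over the EEDS arrays and, on arrays of which only that of 60 nM was well above background, at least 1.20-fold higher with helveticoside. NFIL3, the repressor at D-boxes, had top-dose ratios of 0.36 and 0.03. HLF was well above background on the EEDS control and not at the EEDS doses. By the plain ratio it was 1.47-fold lower at 1.25 μg/mL, and it was at least 1.45-fold lower at 5 μg/mL. None of the other activators and nuclear receptors (NPAS2, BMAL2, RORA and RORB) had a called slope. RORA, the activator that opposes the NR1D receptors at the BMAL1 promoter, stood at least 3.93-fold above its control at 20 μg/mL EEDS, the array on which it was well above background against a control on which it was not.

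Of 10 output genes of the clock, KLF10 rose and NAMPT and PDK4 fell in slope with EEDS, against 7.26% of all genes rising and 7.85% falling, and with helveticoside NAMPT fell, against 5.79%. Counts this small are near the share of all genes. NAMPT, the rate-limiting enzyme of NAD salvage, had signals of 3809, 1990.0, 769 and 681 with EEDS and 4021, 3380.0, 710.4 and 502 with helveticoside, lower at each higher dose. Its slopes were -0.88 (limma adjusted p = 0.0394) and -1.13 (adjusted p = 0.0288). WEE1, the kinase that holds CDK1 inactive before mitosis, had top-dose ratios of 2.15 and 1.70, KLF10 had 3.10 and 2.29, and KLF9, a glucocorticoid-responsive factor, had 1.29 and 1.20. NOCT (nocturnin) was not well above background on either control. With 20 μg/mL EEDS its plain ratio to that dim control was 15.4-fold, which is not a lower bound. With 60 nM helveticoside it stood at least 1.56-fold above its control. Output genes thus lay on both sides of their controls, with a list median of 0.41 and 0.36.

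The last list held 9 genes of the glucocorticoid or cAMP pathways, signals that also act on PER1. In slope, DUSP1 and CRTC2 rose with both agents, 2 of 9 against 7.26% of all genes with EEDS and 5.46% with helveticoside. DUSP1, a MAP kinase phosphatase, had a slope of 0.91 (limma adjusted p = 0.0128) with EEDS and 0.87 (adjusted p = 0.0164) with helveticoside, and top-dose ratios of 2.78 and 2.64. TSC22D3 (GILZ) had top-dose ratios of 1.64 and 2.02, whereas FKBP5, another glucocorticoid target, had 0.05 and -0.82. CREM, a factor of the cAMP response, had 0.85 and 1.29. The part of these pathways in the PER1 values was not tested.

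**Figure D4:**
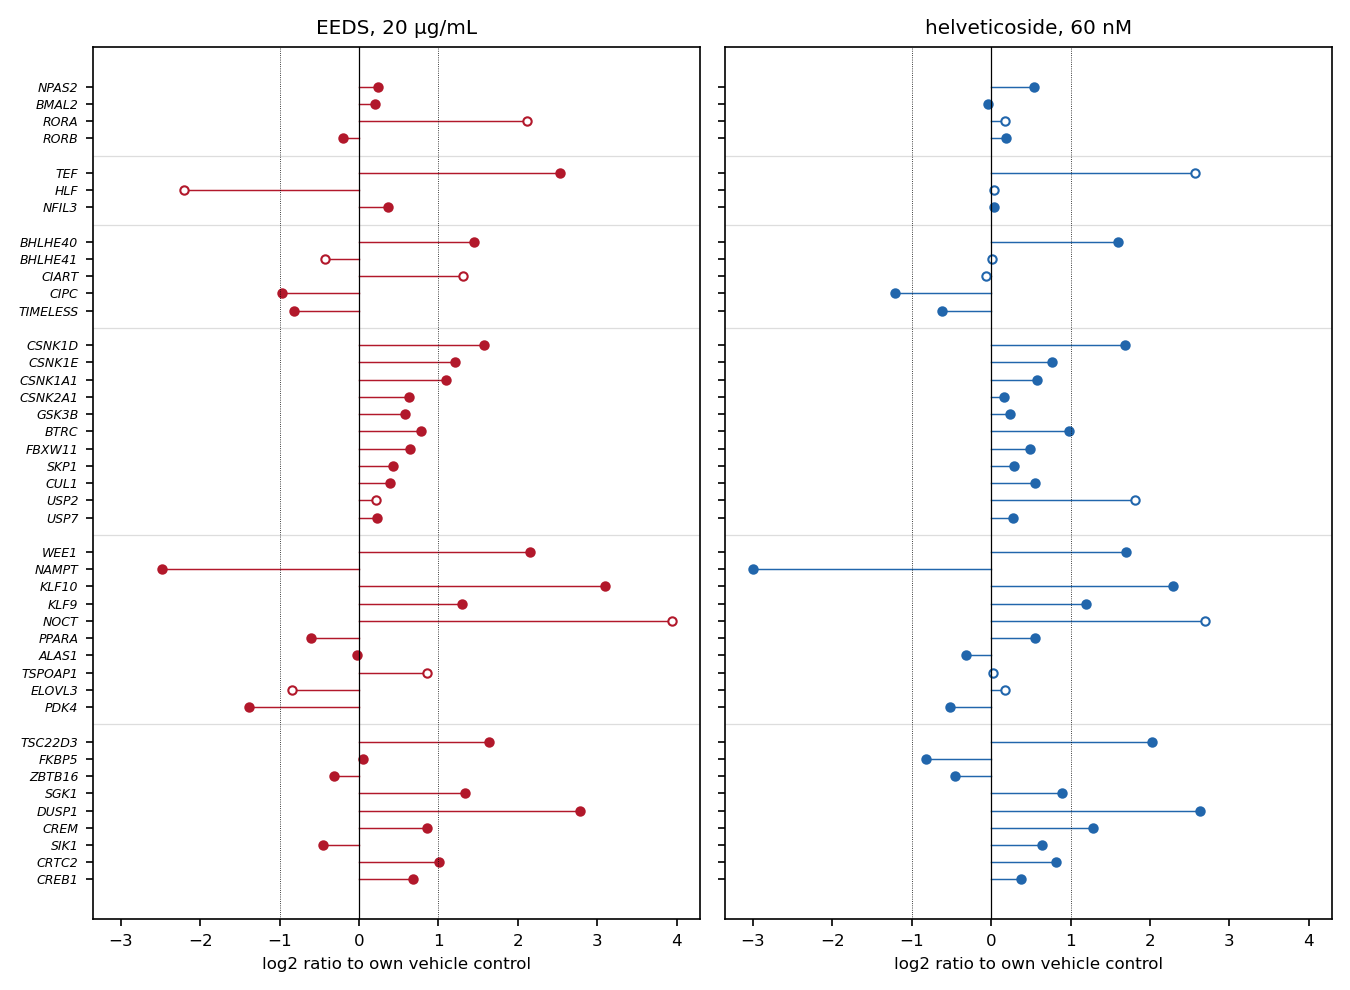
Log2 ratio of the top dose to the own vehicle control (x axis) for the genes of 6 clock-related lists (y axis, lists set apart by grey lines and in the order of other activators and receptors, D-box factors, other repressors, kinases and ligase subunits, outputs, and glucocorticoid or cAMP genes), with EEDS on the left and helveticoside on the right. Each point is a pair of arrays, open points were not well above background on both, and dotted lines mark 2-fold. The kinase and ligase genes all lie to the right of 0 with either agent, and NAMPT lies farthest to the left with helveticoside.

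The labelled cell type was checked by its markers. Of 10 markers of A549 and lung epithelial cells, 9 were measured and all 9 were well above background on all 8 arrays, and over the arrays their log2 summed signal ranged from 19.8 to 20.4. CDH1, KRT18 and KRT19 fell with both agents and KRT8 with EEDS (limma), and CDH1 had top-dose ratios of -2.70 (adjusted p of the slope 0.0363) and -2.71 (adjusted p of the slope 0.0452). AKR1B10 had top-dose ratios of -1.13 and -1.78, EPCAM had 0.05 and -0.26, and KRT7 had 0.62 and 0.53, with no called slope, while in the fit with step as a factor KRT7 rose by 0.57 at the top dose (limma adjusted p = 0.00193). Of 10 markers of other cells, CD3E, PECAM1, VWF, GFAP and SYP were well above background on no array, and 4 (PTPRC, CD68, COL1A1 and DES) were on all 8. CD68 rose in the fit with step as a factor, by 1.31 at the middle dose (limma adjusted p = 0.0135) and by 0.92 at the top (adjusted p = 0.00559). Over the 8 arrays the log2 summed signal of that list ranged from 10.5 to 11.03, a range read only between arrays, and its part in the clock gene values was not tested.

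Genes with ratios most like those of 3 members were found by the Euclidean distance over the 6 log2 ratios, among genes well above background on all 8 arrays. Nearest to PER1 were LSMEM1 (distance 1.62), CSRNP1 (1.82) and FOS (1.85), and FOS had ratios of 1.28, 0.59 and 5.12 with EEDS and 2.20, 1.12 and 2.58 with helveticoside, also lower at the middle than at the lowest dose. LSMEM1 (2.73, 2.71 and 4.50, then 1.36, 2.13 and 2.77) and CSRNP1 (1.23, 1.84 and 3.87, then 1.27, 1.83 and 3.29) did not have that order in both series. Nearest to CRY1 were RIT1 (0.55), AJUBA (0.78) and UPF3B (0.80). Nearest to NR1D1 were SERTAD1 (0.76), TSC22D2 (0.77) and RUNX1 (0.82). PER1 thus had no gene as near to it as CRY1 and NR1D1 had. The distance was not scaled to the size of the ratios, which were largest for PER1, so this is not read as a distinct pattern.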

How the data were processed

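A549 gene expression was measured on 8 arrays, 4 per agent. The authors deposited the intensity of each spot in Agilent scanner files, including a background-subtracted processed signal, and a table of normalized values, used here as an alternative; per the labels and methods, RNA of 3 cultures was pooled per array. Spots the software called outliers were left out (246 to 331 per array, none saturated), spots of a probe were averaged, and signals were quantile-normalized over the 8 arrays. Undetected signals (under 1.4 times local background) below the lowest detected signal of their array were raised to it. The log2 was taken last. Median spot signals were 182 to 278 over a local background of 27 to 34, and 56.9% to 66.9% of spots were well above background. Probes were matched to RefSeq genes through their accession, and the most intense of several probes stood for a gene. FBXL21P and AKR1C2, of the lists, had no matched probe, and some list genes are not reported here.

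Slopes were fitted with limma 3.58.1 in R 4.3.3 (an intercept and a slope per series, 4 residual degrees of freedom, trended robust empirical Bayes), with Benjamini-Hochberg adjustment over 19056 genes and a threshold of 0.05. Tested on simulated data with 200 changed genes of 19056 (EEDS trend), it called 100, of which 94 were changed, and found 62% of slopes of 1 and 32% of slopes of 0.5. The ratio of a dose of 1 agent to its control carries no p-value; the fit with step as a factor took the agents' arrays of a step together. Genes named from the lists were those over 2-fold at the top dose of both agents and well above background, or with a called slope, or needed to account for a count. Some were named after their values were seen (NFIL3, FKBP5, CREM, CIPC, TEF, NOCT and RORA). The members, lists and tests were chosen with earlier results of these data known. A bound sets the dim array at the higher of its own value and the dimmest probe signal that passed the background call there. Where its own value was the higher, the bound is the plain ratio. Bounds hold for the main normalization only. Tables were made with Python 3.11.15, numpy 2.4.6 and pandas 2.3.3, and figures with matplotlib 3.10.9.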

Additional observations from a re-analysis of the deposited data

How the results depend on the processing

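With 1 array per dose, the number of arrays limits every value, and a difference at a single dose has no error. The count of members over 2-fold higher at 20 μg/mL EEDS stayed within 1.5 times of 7 under every alternative run. At a 4-fold threshold 3 members were higher with helveticoside and 0 were lower with either agent, and in the authors' deposited values 0 were over 2-fold lower with helveticoside, where DBP had a ratio of -0.91. The matching shares of all genes were not counted under these alternatives, so these counts are not read as a result about the members. Called slopes depended on the setting, for all genes as for the members. With EEDS, 3 members were among 2879 called genes of 19056 in the main fit. With normexp background correction there were 5 members among 3563 called genes, and with scaling to the 75th percentile 6 among 3991. In the deposited values there were 7 among 4600 called genes of 18200. With only genes well above background on 4 or more arrays there were 5 among 3810 called genes of 13218. On the EEDS arrays alone limma called no gene. With helveticoside, 1 member was among 2145 called genes of 19056 in the main fit. With normexp there were 3 members among 2639 called genes, with 75th percentile scaling 2 among 2482, and with the median over a gene's probes 2 among 2101. With only genes well above background on 4 or more arrays there were 4 among 3117 of 13218. On the helveticoside arrays alone limma called no gene. In the deposited values the 1 member called, among 1657 genes of 18200, was CRY1 and not BMAL1. The fit with step as a factor shared by both agents, added after the data were seen, called 8 members among 7286 genes of 19056. Without 1 array in turn, 0 to 4 members were called with EEDS, among 0 to 2621 genes, and 0 to 1 with helveticoside, among 0 to 1478 genes. Limma called no gene at all for EEDS without its control or its 20 μg/mL array. The same held for helveticoside without its 15 or 60 nM array. The cause of these changes was not tested. The ratios of PER3 and CLOCK turned sign at 60 nM helveticoside, both near 0 or near background: PER3 (1.18) was -0.067 with normexp and -0.063 in the deposited values, and CLOCK (0.04) was -0.19 with 75th percentile scaling and -0.24 against the EEDS control. Others moved by over 1.5 times at a top dose with their sign kept, besides PER1 as given above: with EEDS, PER3 (2.79) was 0.74 with normexp, 1.39 in the deposited values, 1.44 with the median over probes and 1.93 against the other control, and NR1D1 (3.97) was 3.33 with normexp. With helveticoside, CRY1 (2.72) was 2.01 and NR1D1 (3.02) was 2.15 in the deposited values, DBP (-1.65) was -1.06 with normexp and -0.91 in the deposited values, and PER3 was 0.47 with the median over probes and 2.04 against the other control. With scaling to the 75th percentile the median ratio of all genes was -0.20, -0.21 and -0.36 with EEDS and 0.14, -0.12 and -0.18 with helveticoside. The order with the lowest dose above the middle held for 4 or 5 members under each alternative, losing CLOCK with 75th percentile scaling and CRY2 against the other series' control.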
